A study of Mus musculus with 6 samples.

Results

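Genes of heat shock proteins and of their DnaJ cochaperones were examined in mouse hippocampus after stroke, as the genes whose symbol starts with Hspa, Hspb, Hspd, Hspe or Hsph and a number, with Hsp90, or with Dnaja, Dnajb or Dnajc and a number. This rule gave 88 of the 55471 genes in the authors' deposited table. Of the 88, 16 carry symbols of pseudogenes or related copies. The other 72 were placed in classes by location and by known induction, apart from Dnajc22, which was left without a class. The samples are RNA of wild-type hippocampus, taken 24 hours after the brain's blood supply had been cut off and let back in (ischemia reperfusion, as in a stroke that is reopened). Of the 6 samples, 3 came from mice treated with Visudyne and 3 from mice treated with saline. Visudyne contains verteporfin, a drug activated by light, and served here to destroy meningeal lymphatic vessels. Every sample had gone through ischemia, so the comparison is of treatments after stroke, and a change caused by stroke itself cannot be read from it.

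Heat shock proteins are chaperones that bind unfolded or misfolded proteins. Hsp70 works in a cycle of ATP binding and hydrolysis in which DnaJ proteins, also called Hsp40, deliver the client and start hydrolysis, and nucleotide exchange factors such as Hsp110 release it. Hsp90 acts later on kinases and receptors, and small heat shock proteins hold aggregating proteins without ATP. In the cytosol the transcription factor HSF1 switches on the inducible forms after heat, ischemia or other protein damage, while constitutive forms such as Hsc70 (Hspa8) are always made. The endoplasmic reticulum (ER) and the mitochondrion have their own sets, and those of the ER respond to unfolded protein through ATF6 and XBP1.

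The upstream sequences of 5 genes are shown because the text below describes their matches to heat shock and ER stress elements, full or partial. Sequences are from RefSeq's GRCm38.p6 windows of 250 bases before to 50 bases after each gene's start, and 53 of the 70 tested members have such a window. Members without one, among them Hspa8, Hsp90aa1 and Hsp90ab1, were not searched. The heat shock element was searched on both strands as 3 or 4 units, GAA and its complement TTC in alternation and starting with either, with 2 bases of any kind between units. The 4-unit form contains the 3-unit form. The 4-unit form was found in 8 of 27025 genes with a window, among them the mitochondrial chaperonin genes Hspd1 and Hspe1, which lie head to head and share 285 bases of their windows. In the Hspe1 sequence the capitals mark the 4-unit element, which begins 89 bases before the start site.
Hspe1, chr1:55087948-55088147, plus strand: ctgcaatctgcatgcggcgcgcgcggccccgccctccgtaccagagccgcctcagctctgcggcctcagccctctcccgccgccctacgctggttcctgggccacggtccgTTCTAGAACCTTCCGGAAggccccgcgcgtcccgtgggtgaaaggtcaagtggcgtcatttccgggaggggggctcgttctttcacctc
The 3-unit form was found in 179 of the 27025 genes (0.662%) and in 4 of the 53 members, Hsph1, Dnajb6, Hspd1 and Hspe1. In Hsph1, the Hsp110 gene, the match TTCTGGAAAGTTC begins 36 bases after the start site (chr5:149636288-149636300, minus strand), and in Dnajb6 the match GAATCTTCCGGAA begins 46 bases before it (chr5:29735852-29735864, plus strand). The inducible Hsp70 genes Hspa1a and Hspa1b hold no exact 3-unit match in this window. They hold a 2-unit match (GAANNTTC or TTCNNGAA), a form present in 4587 of the 27025 genes (17.0%) and in 15 of the 53 members (28.3%). It begins 104 bases before both start sites and is in capitals below. The 250 bases of the pair differ at 3 positions.
Hspa1a, chr17:34972157-34972406, minus strand: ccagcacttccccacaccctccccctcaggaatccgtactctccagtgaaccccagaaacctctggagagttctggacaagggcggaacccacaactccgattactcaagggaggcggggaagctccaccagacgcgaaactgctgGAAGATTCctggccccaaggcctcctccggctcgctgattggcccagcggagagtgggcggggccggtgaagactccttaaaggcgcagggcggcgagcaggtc
Hspa1b, chr17:34959239-34959488, minus strand: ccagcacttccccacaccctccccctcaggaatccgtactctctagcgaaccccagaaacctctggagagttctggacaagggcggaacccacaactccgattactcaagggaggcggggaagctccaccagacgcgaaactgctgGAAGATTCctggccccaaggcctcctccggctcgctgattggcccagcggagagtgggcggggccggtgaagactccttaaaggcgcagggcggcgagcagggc
The ER stress element, CCAAT and CCACG with 9 bases of any kind between them, was searched on both strands and found in 37 of the 27025 genes (0.137%) and in 3 of the 53 members. These are Hspa5, Hsp90b1 and Dnajc3, all in the ER class. Capitals mark the element in Hspa5, which encodes the ER Hsp70 BiP, and the pair of elements in Hsp90b1, which encodes the ER Hsp90 GRP94.
Hspa5, chr2:34771840-34772089, plus strand: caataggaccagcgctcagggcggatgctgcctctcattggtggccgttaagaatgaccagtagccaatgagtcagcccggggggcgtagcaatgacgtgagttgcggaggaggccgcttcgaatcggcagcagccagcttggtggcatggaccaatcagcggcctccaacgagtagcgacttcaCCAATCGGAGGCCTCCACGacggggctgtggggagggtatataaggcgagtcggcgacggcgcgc
Hsp90b1, chr10:86705445-86705694, minus strand: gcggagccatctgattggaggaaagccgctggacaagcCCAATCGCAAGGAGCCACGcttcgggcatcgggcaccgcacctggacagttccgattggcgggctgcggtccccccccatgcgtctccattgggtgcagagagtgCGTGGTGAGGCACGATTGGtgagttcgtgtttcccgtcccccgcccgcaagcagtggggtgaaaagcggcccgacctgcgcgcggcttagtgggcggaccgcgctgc

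The values are the authors' comparison of the treatments, 1 mean normalized count, log2 fold change, error and p-value per gene, and single libraries were not analysed. The table does not state which treatment is the numerator, and directions below are the sign of the fold change only. The deposited fold changes are shrunken toward 0 by the authors. For 68 of the 70 tested members the shrinkage leaves a deposited value within 0.0105 of 0. Unshrunken log2 fold changes were therefore back-calculated from the deposited value, its error and its p-value, and each is given with its standard error (SE). Their sizes rest on an inferred prior, and a wider one makes them smaller. The p-values and the signs do not depend on this back-calculation. Whether the 3 samples of a treatment are 3 animals is not in the labels, so p-values describe only the spread of these samples, possibly a technical one. The mean normalized counts sum to 25011655 over all genes, and library totals were not used here. Hippocampal neuron markers were all measured, with 8 of 8 tested and mean normalized counts from 397 to 5804.

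No heat shock or DnaJ gene had an adjusted p under 0.05. By the authors' deposited table, 70 of the 88 members have an adjusted p, 10 have no reads and 8 have means too low for the adjustment. None of the 70 was called, where 61 of all 18603 tested genes (0.328%) were. At an unadjusted p under 0.05 there were 8 members (11.4%), 2 positive and 6 negative, against 6.81% of all tested genes, 3.92% positive and 2.89% negative. The smallest adjusted p of a member in the authors' deposited table was 0.179. The median log2 fold change of the 70 members was -0.01 and that of all tested genes was 0.00. The middle of the members' values, between the quartiles, ran from -0.16 to 0.12, and for 62 the 95% interval lay inside a 2-fold change in either direction.

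**Figure D1:**
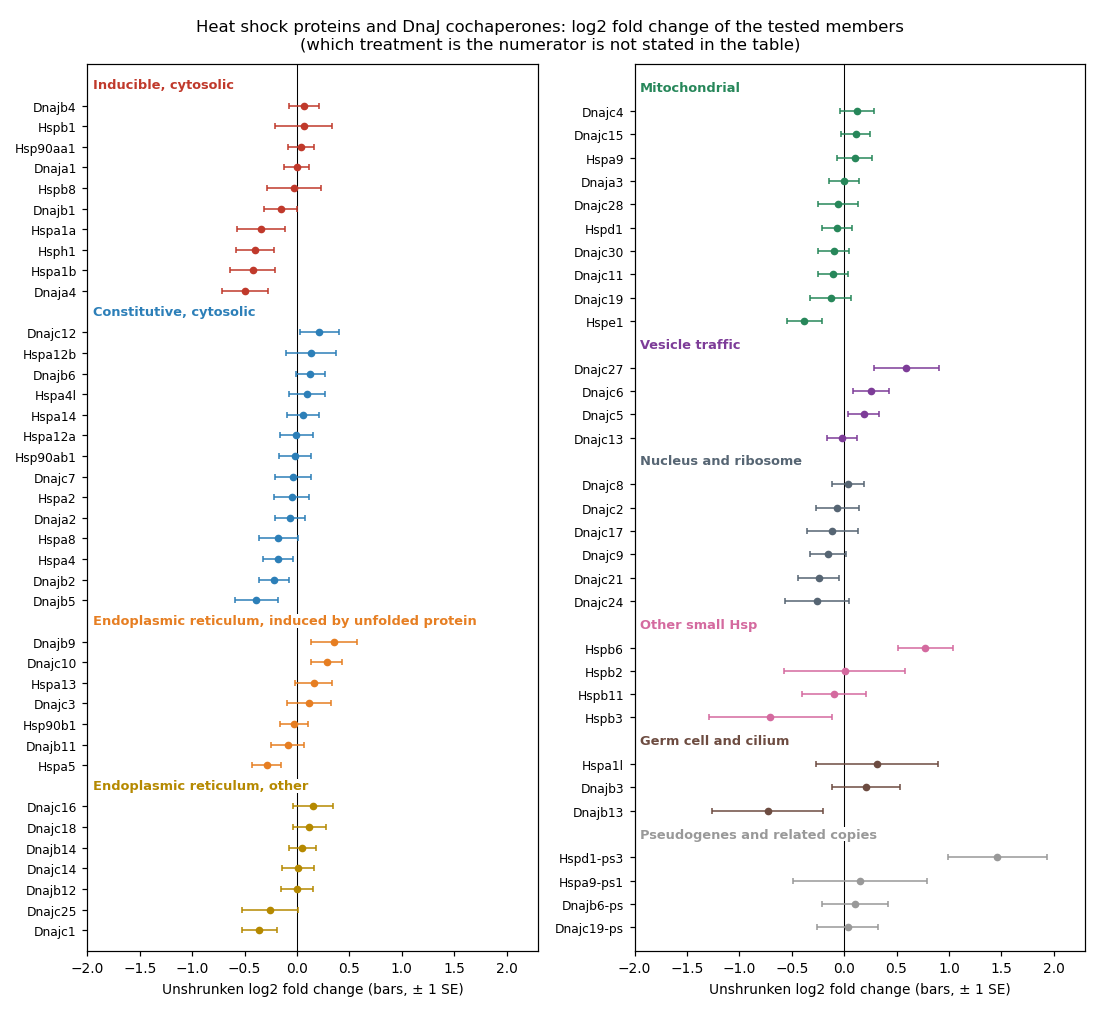
Unshrunken log2 fold change (horizontal axis) of the tested members, apart from 1 copy not reported here, grouped by class; points are the back-calculated values and bars are 1 standard error either side. Hspd1-ps3 (1.46) and Hspb6 (0.77) lie farthest on the positive side, and Dnajb13 (-0.73) and Hspb3 (-0.71), both with wide bars, farthest on the negative side.

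Of the 10 inducible cytosolic chaperones 7 had a negative value, against 49.5% of all tested genes. Among the 7, Dnaja1 (-0.00 ± 0.12) and Hspb8 (-0.03 ± 0.26) lay close to 0. Mitochondrial members were likewise negative in 7 of 10 and constitutive cytosolic ones in 9 of 14. The median log2 fold change of the inducible class was -0.09, and the median SE of its members was 0.20. At an unadjusted p under 0.05 there were 3 of the 10, all negative, against 6.81% of all tested genes, 2.89% negative. None was called after adjustment over all genes. The difference from the other classes was not tested. Microglia markers lay on the negative side in 8 of 8 (median -0.51, 2 called, summed mean normalized count 7089). Oligodendrocyte markers were also negative in 8 of 8 (median -0.31, 1 called, sum 233736). Hippocampal neuron markers were negative in 6 of 8 (median -0.30, 4 at an unadjusted p under 0.05). General neuron markers were instead positive in 6 of 8 (median 0.09, sum 244436). No marker of these lists was at 0, and the part of these cells in the class's values was not tested. Hspa1b (ENSMUSG00000090877), an inducible Hsp70, had a mean normalized count of 445 and a log2 fold change of -0.42 ± 0.21 (SE; unadjusted p = 0.0464, adjusted p = 0.719 in the authors' deposited table). Its 95% interval as a fold change ran from 0.558 to 0.995. Its neighbour Hspa1a had a mean normalized count of 418 and a log2 fold change of -0.34 ± 0.23, with an unadjusted p of 0.138 in the authors' deposited table. Of the 100-base windows in the Hspa1b transcript 49.9% occur without a mismatch in Hspa1a or Hspa1l, so the 2 values may share reads and are uncertain as separate measurements.

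Hsph1, the Hsp110 that recharges Hsp70 with ATP, had a mean normalized count of 4878 and a log2 fold change of -0.40 ± 0.18 (SE; unadjusted p = 0.0248, adjusted p = 0.586 in the authors' deposited table). Dnaja4, an inducible DnaJ cochaperone, had a mean of 1977 and a log2 fold change of -0.49 ± 0.22 (SE; unadjusted p = 0.0242, adjusted p = 0.584 in the authors' deposited table). Exons of Dnaja4 overlap those of Wdr61 on the other strand, which had -0.08 ± 0.15. The remaining inducible members had smaller values. Dnajb1, the principal heat-induced DnaJ partner of Hsp70, had a log2 fold change of -0.16 ± 0.16. The inducible Hsp90 gene Hsp90aa1 had 0.04 ± 0.12, with a 95% interval of 0.870 to 1.22 as a fold change. Dnaja1 (-0.00 ± 0.12), Dnajb4 (0.07 ± 0.14), Hspb8 (-0.03 ± 0.26) and Hspb1 (0.06 ± 0.27) lay close to 0. A second equation takes the deposited value as the mode. For Dnaja1, Hspb8 and Dnajb1 it gave an SE 0.00648, 0.00123 and 1.67 times the one printed. The sizes and the interval widths of these genes are therefore uncertain. Hspb1, the small heat shock protein Hsp25, had a wide 95% interval of 0.724 to 1.51 as a fold change, at a mean normalized count of 109.

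Of the 14 constitutive cytosolic chaperones 9 had a negative value, against 49.5% of all tested genes. The median log2 fold change of the class was -0.03. None of the 14 reached an unadjusted p of 0.05, against 6.81% of all tested genes. Hspa8, the constitutive Hsc70, had a mean normalized count of 53377 and a log2 fold change of -0.18 ± 0.19. The size for Hspa8 is uncertain, because the second equation gave 0.00518 times this SE. Hsp90ab1, the constitutive Hsp90, had a mean of 57604 and -0.02 ± 0.15, with a 95% interval of -0.32 to 0.28 on the log2 scale, and the second equation gave no SE for it. The lowest value of the class belonged to Dnajb5, a neuronal DnaJ protein, with a log2 fold change of -0.39 ± 0.21 (unadjusted p = 0.0624 in the authors' deposited table). Hspa12a, an atypical Hsp70 abundant in brain, had -0.01 ± 0.16, and Dnaja2, a general Hsp70 cochaperone, had -0.07 ± 0.15. Set beside its inducible relative, Hspa4 (-0.18 ± 0.14), a constitutive Hsp110 relative, was less negative than Hsph1 (-0.40 ± 0.18). Their SEs overlap, and the difference was not tested.

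**Figure D2:**
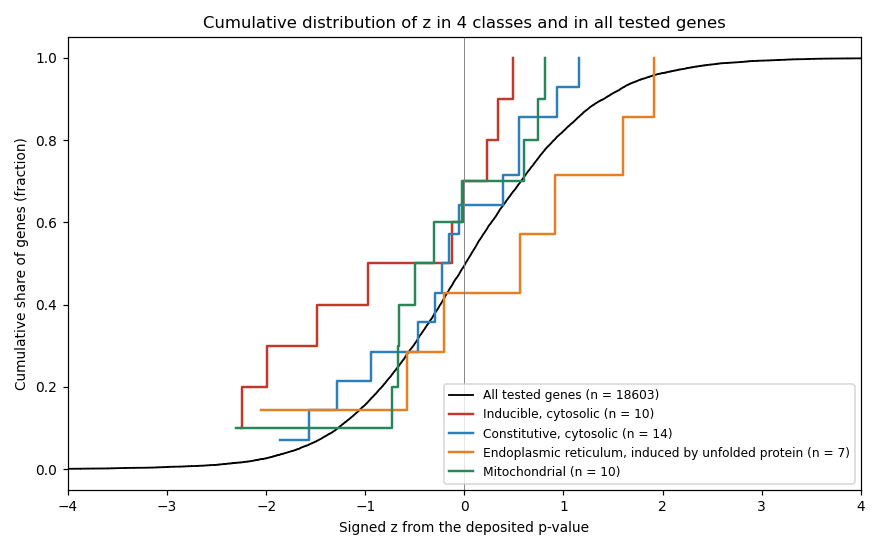
Cumulative share of genes (vertical axis, fraction) by signed z from the deposited p-value (horizontal axis) for 4 classes and for all 18603 tested genes. Of the 10 inducible cytosolic members 7 have a negative z, beside 9 of 14 constitutive members, 3 of 7 inducible ER members, 7 of 10 mitochondrial members and 49.5% of all tested genes.

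Levels were compared per length, as mean normalized count per kilobase (kb) of exon in GENCODE vM21, whose gene models may differ from those the authors counted on. By this measure 55 of the 70 tested members lay above the median of all tested genes, 80.4 per kb. Hsp90ab1 was the highest member with 19208 per kb, followed by Hspa8 with 12410 and Hsp90aa1 with 6786. Together these 3 genes made 55.8% of the normalized counts of all members, and the members made 0.986% of those of all genes. The inducible Hsp70 genes were far lower, at 159 per kb for Hspa1b and 141 for Hspa1a, and Hspa8 had 41.4 times the sum of that pair. Hsp90ab1 had 2.83 times the level of Hsp90aa1. Of the 100-base windows, 47.55% in Hsp90aa1 and 0% in Hsp90ab1 also occur in other genes. The shares are 31.6% for Hspa8, 49.9% for Hspa1b and 48.6% for Hspa1a. Such unequal sharing makes both ratios uncertain. Hspb1 had 105 per kb.

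**Figure D3:**
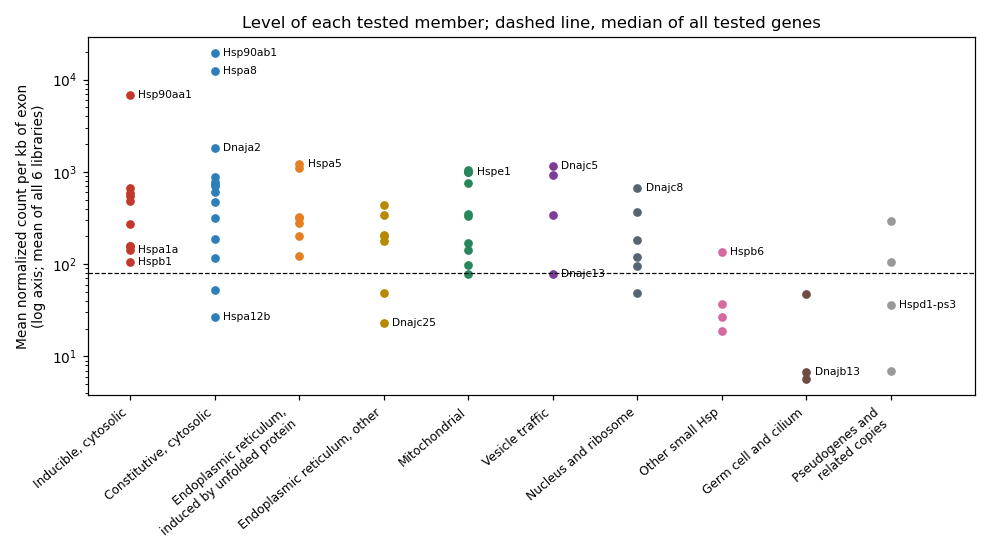
Mean normalized count per kb of exon (vertical axis, log scale, mean of all 6 libraries) of the tested members, apart from 1 copy not reported here, by class; the dashed line is the median of all tested genes, 80.4. Hsp90ab1, Hspa8 and Hsp90aa1 stand above every other member, and Hspa1b (159), Hspa1a (141) and Hspb1 (105) lie nearer the dashed line.

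The ER chaperones did not share a direction. Of the 7 members induced by unfolded protein 4 were positive and 3 negative, with a median log2 fold change of 0.12. Only 1 of the 7, Hspa5, had an unadjusted p under 0.05, against 6.81% of all tested genes. Hspa5, the ER Hsp70 BiP, had a mean normalized count of 5137 and a log2 fold change of -0.29 ± 0.14 (SE; unadjusted p = 0.0400, adjusted p = 0.681 in the authors' deposited table). Hsp90b1, which holds the same promoter element printed above, had -0.03 ± 0.13, and Dnajc3, the third holder and an ER cochaperone that also inhibits the kinase PERK, had 0.12 ± 0.21. Dnajc10, an ER disulfide reductase, had 0.28 ± 0.15 (unadjusted p = 0.0560 in the authors' deposited table), and Dnajb9, an ER DnaJ induced by XBP1, had 0.35 ± 0.22. Dnajb11, a BiP cochaperone in the ER lumen, had -0.09 ± 0.16 and Hspa13, a microsomal Hsp70 relative, 0.16 ± 0.18. Hspa5 was thus the lowest of the class and Dnajb9 the highest.

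Of 7 other ER members 5 were positive and 2 negative, with a median log2 fold change of 0.01. Dnajc1, an ER membrane DnaJ protein that recruits BiP, had a mean normalized count of 566 and a log2 fold change of -0.36 ± 0.17 (SE; unadjusted p = 0.0303, adjusted p = 0.628 in the authors' deposited table). Its exons overlap those of Mllt10 on the other strand, which had -0.12 ± 0.17. The most counted members of this class, Dnajb14, Dnajc18 and Dnajc14, had a log2 fold changes of 0.05 ± 0.13, 0.12 ± 0.16 and 0.01 ± 0.15. Dnajb14 and its relative Dnajb12 (0.00 ± 0.16) help degrade misfolded membrane proteins of the ER.

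Mitochondrial chaperones centred on a median of -0.07 (log2 fold change), with 7 of 10 negative against 49.5% of all tested genes. An unadjusted p under 0.05 was found for 1 of the 10, against 6.81% of all tested genes. Hspe1, the lid of the mitochondrial chaperonin, had a mean normalized count of 1452 and a log2 fold change of -0.38 ± 0.16 (SE; unadjusted p = 0.0209, adjusted p = 0.550 in the authors' deposited table). Its partner Hspd1, the barrel of the same chaperonin, had a mean of 2795 and -0.07 ± 0.14, and both genes carry the 4-unit heat shock element printed above in the bases their windows share. The difference between them was not tested. Of the Hspd1 windows of 100 bases 26.9% recur in Hspd1-ps3 or Gm47750, and 0.347% of the Hspe1 windows recur in another gene. Exons of Hspe1 and Hspd1 also overlap each other on opposite strands. Hspa9, the mitochondrial Hsp70 mortalin, had 0.10 ± 0.17. Its cochaperone Dnaja3 had -0.00 ± 0.14, and Dnajc11, of the inner membrane organizing system, had -0.10 ± 0.14.

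Of the 4 members placed in the vesicle traffic class 3 were positive, beside 9399 of all 18603 tested genes. The class median log2 fold change was 0.22, and 0.041 with the scale of the inferred prior doubled. None of the 4 had an unadjusted p under 0.05, against 6.81% of all tested genes. Dnajc5, the cysteine string protein that guards SNARE folding on synaptic vesicles, had a mean normalized count of 8143 and 0.19 ± 0.15. Dnajc6, the neuronal auxilin that strips clathrin from vesicles with Hsc70, had a mean of 5508 and 0.26 ± 0.17. Dnajc27, a Rab-like GTPase with a J domain, had 0.59 ± 0.31 (unadjusted p = 0.0546 in the authors' deposited table), and Dnajc13, of endosomal sorting, had -0.02 ± 0.14. General neuron markers were positive in 6 of 8 with a median of 0.09, and hippocampal neuron markers were negative in 6 of 8 with a median of -0.30. The part of either list in these values was not tested.

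Members of the nucleus and the ribosome were negative in 5 of 6, against 49.5% of all tested genes, with a median log2 fold change of -0.13. None of the 6 had an unadjusted p under 0.05, against 6.81% of all tested genes. The smallest unadjusted p of the class in the authors' deposited table was 0.217. Values of the 6 ran from -0.26 for Dnajc24, of diphthamide synthesis, to 0.04 for Dnajc8, a splicing protein. Dnajc9, a histone cochaperone, had -0.15 ± 0.17 and the ribosome-bound Dnajc2 had -0.06 ± 0.21.

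The largest positive value of a tested member that is not a copy belonged to Hspb6, the small heat shock protein Hsp20, best known from muscle. The authors' deposited table gives it 0.51 ± 0.38 on the log2 scale (deposited error; unadjusted p = 0.00302, adjusted p = 0.232), and the back-calculated unshrunken value is 0.77 ± 0.26. The unshrunken value corresponds to a 1.71-fold difference and the lower 95% bound is 0.26 on the log2 scale, at a mean normalized count of 308. Exons of Hspb6 overlap Gm38670 on the same strand. They also overlap those of Lin37 and Proser3 on the other strand, and these had unshrunken log2 fold changes of -0.15 ± 0.22 and -0.28 ± 0.42. Among the cell types that could contribute, meningeal fibroblast markers were positive in 8 of 8 with a median of 1.10 and a summed mean normalized count of 1538. Markers of mural cells (pericytes and smooth muscle) were positive in 4 of 8, with a median of 0.08 and a sum of 3887. Astrocyte markers were positive in 5 of 8, with a median of 0.08 and a sum of 120010. Choroid plexus markers were positive in 7 of 8, with a median of 1.29 and a sum of 35537. Their median SE was 1.07, and none had an unadjusted p under 0.05. No marker of these lists was at 0, values of each group were not analysed here, and the part of these cells in the Hspb6 value was not tested. In bulk tissue, fewer cells of a type and less RNA per cell cannot be told apart.

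The other small heat shock proteins gave little information. Hspb11, a subunit of ciliary transport, had -0.10 ± 0.31 and the muscle proteins Hspb3 and Hspb2 had -0.71 ± 0.59 and 0.00 ± 0.57, at means of 21.0 and 15.5 normalized counts. Hspb2 overlaps Cryab on the other strand. Among genes known from germ cells and cilia, Dnajb13, of the ciliary radial spoke, had -0.73 ± 0.53, Hspa1l 0.31 ± 0.58 and Dnajb3 0.21 ± 0.32. Ependymal and cilia markers were negative in 8 of 8 with a median of -0.42 and a summed mean of 1051, and their part in the Dnajb13 value was not tested.

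Of the 16 pseudogenes and related copies 5 were tested, and they held the highest value of all tested members. Hspd1-ps3, a processed copy of the chaperonin gene, stands in the authors' deposited table at 1.03 ± 0.61 on the log2 scale (deposited error; unadjusted p = 0.00184, adjusted p = 0.179). Its back-calculated unshrunken value is 1.46 ± 0.47, at a mean normalized count of 62.2. Of its 100-base windows 36.9% also occur in Gm47750 or Hspd1, and Hspd1 had a log2 fold change of -0.07 ± 0.14. This sharing of reads makes the count of Hspd1-ps3 uncertain.

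Partners of the chaperones outside the symbol rule were read from lists of 50 genes, all tested. None was called, and 4 of the 50 had an unadjusted p under 0.05, against 6.81% of all tested genes. Hsp90 cochaperones were negative in 12 of 13, with a median log2 fold change of -0.13, against 49.5% negative among all tested genes. Chordc1, an Hsp90-binding protein induced by heat, had -0.56 ± 0.28 (unadjusted p = 0.0433, adjusted p = 0.700 in the authors' deposited table). The single positive cochaperone was Fkbp5, which binds steroid receptors with Hsp90 and is induced by glucocorticoids, with 0.49 ± 0.21 (unadjusted p = 0.0199, adjusted p = 0.539 in the authors' deposited table). Ahsa1, which speeds the ATPase of Hsp90, had -0.15 ± 0.16 and Stip1, which links Hsp70 to Hsp90, -0.15 ± 0.16.

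Of the heat shock factors and Hsbp1, a protein that binds them, 3 of 6 were positive, with a median log2 fold change of -0.02. Hsf1, the main factor of the heat shock response, had -0.39 ± 0.24. Regulators of Hsp70 were positive in 7 of 13 with a median of 0.01, and only Bag4, a nucleotide exchange factor, reached an unadjusted p of 0.05 among them, with 0.39 ± 0.18 (unadjusted p = 0.0338 in the authors' deposited table). The heat-induced Bag3 had -0.04 ± 0.22. Other chaperones were negative in 13 of 18 with a median of -0.06. Cryab, a small heat shock protein abundant in oligodendrocytes, had -0.44 ± 0.20 (unadjusted p = 0.0297, adjusted p = 0.628 in the authors' deposited table), and the oxidative stress enzyme Hmox1 had -0.08 ± 0.24. Oligodendrocyte markers were negative in 8 of 8 with a median of -0.31 and a summed mean normalized count of 233736, and their part in the Cryab value was not tested.

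**Figure D4:**
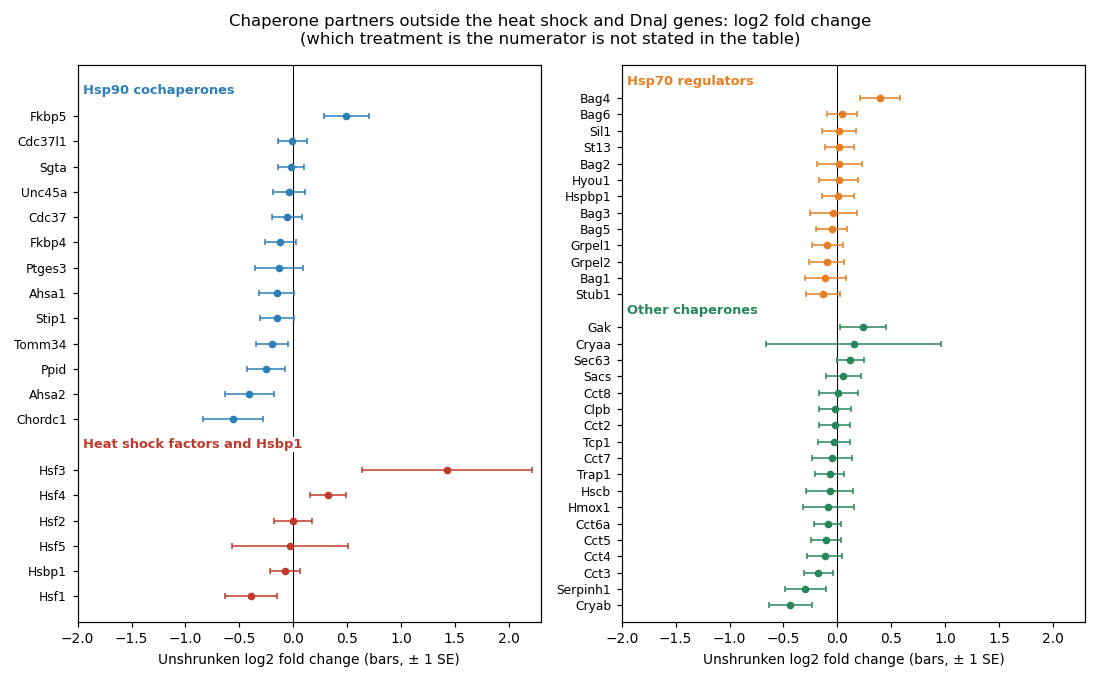
Unshrunken log2 fold change (horizontal axis) of 50 chaperone partners in 4 lists; points are back-calculated values and bars are 1 standard error either side. Of the 13 Hsp90 cochaperones 12 lie left of 0 and Fkbp5 lies right of it, while the Hsp70 regulators scatter around 0.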

How the data were processed

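Stranded mRNA libraries of 6 hippocampus samples were sequenced as 150 bp paired-end reads; per the labels' protocols, trimming used fastp 0.20.0, alignment HISAT2 2.1.0 and gene counting featureCounts 2.0.1. The submitters' processing notes list DESeq2 1.28.0. Genome build, annotation, strand setting, type of test and shrinkage tool were not given in the sources used here. Among the tested members, exons of 23 overlap a gene on the opposite strand and of 9 a gene on the same strand, and 13 share over 10% of their 100-base windows with another gene, in GENCODE vM21.

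Both sheets of the workbook hold the same values, and 1 was used. Its mean count is a signal, counts divided by size factors and averaged over all libraries by the authors, per the file headers and the values. The deposited fold change and error are log2 values that, judged by their size, the authors had shrunken. Each deposited p-value comes from the authors' comparison, and the lowest mean with an adjusted p-value is 5.67. Library counts were not used here, so no edgeR test was made. All 88 member IDs, and 55144 of all IDs, matched a table of gene names.

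A signed z was taken from the p-value. The deposited error was read as the curvature of a normal likelihood plus a Cauchy prior at the deposited value. The prior's scale, 0.0357, came from genes with means under 0.6. This gives the unshrunken SE, and z times SE the unshrunken fold change. The shape of the prior is inferred. A second equation, that the deposited value is the mode, gave an SE 1.00 times the first (median, quartiles 0.990 and 1.01) over 18445 genes, and within 10% of it for 52 of the 70 tested members. Intervals are the value ± 1.96 SE. The calculation was tested on simulated data made with the same prior, which does not test the choice of prior.

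The members, classes and lists were chosen with earlier results of these data known. Classes rest on textbook knowledge. For 1 copy, which stays in the counts and medians, no value of its own is reported here. Genes were named by rule, as the tested inducible cytosolic and ER members, Hspa9, Hspd1 and Hspe1, members and listed partners with an unadjusted p under 0.05, and the 3 most counted members of each other class. Other genes named here were chosen after their values were seen. The planned test was the authors' adjusted p at 0.05. Alternatives are in the closing section. Work was done in Python 3.11.15 (numpy 2.4.6, pandas 2.3.3, scipy 1.17.1, matplotlib 3.10.9).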

Additional observations from a re-analysis of the deposited data

How the results depend on the processing

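No member was called at an adjusted p under 0.1, with p adjusted over all genes with a p, over genes with a mean normalized count of 25.01 or more, or after dividing z by its SD of 1.09. Over all genes these settings gave 116, 45, 65 and 19 calls, against 61. Members at an unadjusted p under 0.05 numbered 8, and 6 after that division. The share of all tested genes after the division is not given here, so the 6 cannot be set against it. The adjusted p of all 45 named genes was above 0.05 after dividing z by its SD and when adjusted over all genes with a p. The class medians moved by less than the median SE of the class in 35 of 36 alternatives. That limit is wide, because in every class but the vesicle one the median is itself smaller than it. In the inducible cytosolic class the median was -0.09 and the median SE 0.20. The tally therefore cannot show that the sizes are stable. The sizes depend on the inferred prior. With its scale doubled the median of the vesicle class was 0.041, against 0.22, and that of the inducible cytosolic class -0.016, against -0.09. With the scale halved no SE could be had for 8 of the 9 classes and for 3 of 4 members of the other, so that setting was not run. The median of the other small heat shock proteins was 0.34, against -0.05, at means of 25.01 or more, which leaves Hspb6 and Hspb11. After seeing the data, medians were also computed from the second equation and without members that share over 10% of their windows, which gave -0.13 and -0.16 for the inducible cytosolic class, against -0.09. No paired analysis was possible because the comparison table has no value per library, and for that reason no library was left out and no other normalization was run. For the rarest members depth limits the comparison, with an SE of 0.58 for Hspa1l and 0.59 for Hspb3, against 0.12 for Hsp90aa1.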

Other observations

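Of the 88 members 18 could not be compared. The table lists 10 at a mean of 0, namely 7 chaperonin pseudogenes, Dnajc5g and Dnajb8, which are known from testis, and Hspb9. A further 8 had means from 0.139 to 4.81 normalized counts, too low for an adjusted p. Among these, Dnajb7, Dnaja1-ps and Hspd1-ps1 had exactly the mean of 1 read in 1 library, within 1e-06. Hspb7, a heart and muscle protein, had a mean of 1.43, Dnajc22 1.24 and Dnajc5b 0.957.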
